A study of Mus musculus with 2 samples.

Results

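The brain and spinal cord are supplied by capillaries whose endothelial cells form the blood-brain and blood-spinal cord barrier. Neighbouring endothelial cells are sealed by tight and adherens junctions, growth is controlled by vascular endothelial growth factor (VEGF) acting on receptor tyrosine kinases, and solute carriers in the membrane let selected nutrients and hormones through. Described here are 8 genes of these cells: the junction and adhesion genes Cldn5, Cdh5 and Pecam1, the VEGF receptor genes Flt1 and Kdr, the carrier genes Slc2a1 and Slco1c1, and Vwf, which encodes a secreted clotting factor. They were chosen by Ensembl identifier as well-known genes of endothelium and of the barrier, with earlier results of these data known. They make up 8 of the 12530 mouse genes in the tables. All 8 were listed in both libraries, and the one with the fewest reads, Pecam1, had 152 over the libraries.

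The study profiled ribosome-protected fragments of mouse spinal cord, the pieces of mRNA that a ribosome shields from RNase, in 1 library of wild-type mice and 1 library of mice heterozygous for the C201R allele of Gars (GarsC201R/+), the gene of glycyl-tRNA synthetase. In each genotype the flash-frozen cords of 3 animals were lysed and pooled before the library was made, so the values hold no variation between animals. The labels give no strain, age or sex. The wild-type library held 7770935 gene reads and the GarsC201R/+ library 3491159, and the median gene had 206 and 96 reads. Because each genotype is a single library, no difference could be checked against replicates and none has a p-value. Intervals are 95% intervals for counting error only, reads may not be independent molecules, and the ratios compare these libraries, not the genotypes. In whole tissue, fewer cells of a type and less RNA per cell cannot be told apart, and without an RNA library neither can mRNA amount and translation. The identifiers of other cell type markers were not paired with symbols here, so the makeup of the tissue was not checked.

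The ratios of the 8 genes lay on both sides of equal levels. Of the 8, 6 had a higher scaled level in the GarsC201R/+ library and 2 a lower one, with Cldn5 the highest at 2.03-fold (1.71 to 2.42) and Slco1c1 the lowest at a ratio of 0.800 (0.646 to 0.984). The scaled level is the read count after TMM scaling, which sets the library sizes from the bulk of genes. Higher or lower was called when the reads of a gene summed to 100 or more over the libraries, with a ratio of at least 1.5-fold and an interval that excluded equal levels. Cldn5 and Pecam1, 2 of the 8 genes, were called higher, as were 8.14% of the 9726 genes with enough reads. None of the 8 was called lower, against 11.2% of those genes, and 19.3% were called in either direction. By the interval alone, 5 members were higher and 1 was lower, against 23.7% and 28.2% of the tested genes, or 51.9% in either direction. The median log2 ratio was 0.44 over the 8 genes and -0.03 over the tested genes, and 5 of the 8 lay above the 75th percentile of tested genes at 0.26. The number called depended on the scaling: scaling to total gene reads added Flt1 and Kdr for a total of 4, because both lie close to the 1.5-fold limit. That scaling called 9.79% of the tested genes higher and 9.45% lower, so the balance over all genes turned too. Directions are relative to the gene reads: scaled to the total of the ERCC spike-ins, synthetic RNAs in the tables, all 8 genes were lower, as were all 9726 tested genes. The labels do not say whether or when spike-ins were added, so that scaling cannot be read as a level.

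**Figure D1:**
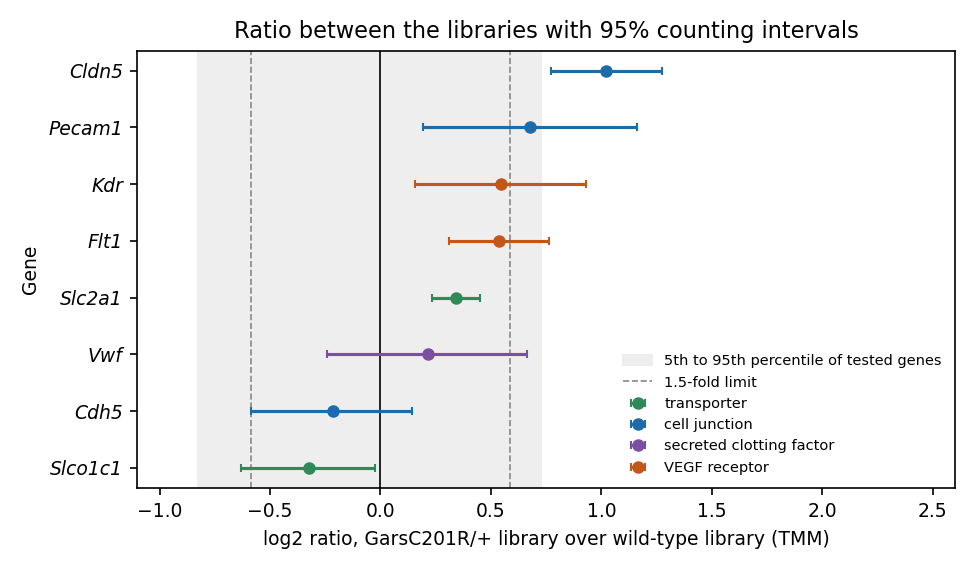
Log2 ratio of the GarsC201R/+ library over the wild-type library for each of the 8 genes after TMM scaling, with 95% counting intervals (n = 1 library per genotype). The grey band spans the 5th to 95th percentile of the 9726 tested genes and dashed lines mark 1.5-fold. Cldn5, at 1.02, is the only one of the 8 outside the band, and Cdh5 and Slco1c1 lie below 0.

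Cldn5 (ENSMUSG00000041378) encodes claudin-5, the main claudin of the endothelial tight junction at this barrier. Its reads numbered 271 (240 to 305) in wild type and 257 (227 to 290) in GarsC201R/+, nearly equal although the second library held fewer reads in all. Per length and library size, the deposited level was 24.6 RPKM (reads per kilobase of gene, scaled to the size of the library) in the wild-type and 51.6 RPKM in the GarsC201R/+ library. Its counting intervals were 21.7 to 27.7 and 45.4 to 58.3 RPKM. The log2 ratio after TMM scaling was 1.02 (0.77 to 1.28), and 156 of the 9726 tested genes (1.60%) had a higher one. Counting error is not the whole spread between these libraries. Among the 974 genes of similar depth, with 447 to 601 reads over the libraries, the robust SD of the log2 ratio was 0.42 and 5.13% of genes were called higher. The gene lies on chromosome 16 at 18776847 to 18778262 (GRCm38) and has a single RefSeq span of 1416 nt. That is the length behind its RPKM values too, and no other gene of the RefSeq table overlaps it.

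Cdh5 (ENSMUSG00000031871) encodes VE-cadherin, the cadherin that joins endothelial cells at adherens junctions. Its reads were 224 (196 to 255) in the wild-type and 90 (72.4 to 111) in the GarsC201R/+ library, or 7.20 and 6.40 RPKM. The log2 ratio was -0.21 (-0.58 to 0.14), and the interval holds equal levels. Among the 978 genes with 261 to 343 reads over the libraries, the robust SD of the log2 ratio was 0.46. The point ratios of Cdh5 and Cldn5 lay on opposite sides of equal levels, but the side of Cdh5 is not settled by its interval. Relative to Cdh5, Cldn5 was 2.36-fold higher in the GarsC201R/+ library than in the wild-type library (1.73 to 3.22). In levels per length, with the lengths behind the RPKM values, Cldn5 stood at 3.41 times Cdh5 in wild type and at 8.06 times in GarsC201R/+.

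Pecam1 (ENSMUSG00000020717) encodes the adhesion molecule CD31, which is found at endothelial cell contacts and also on platelets and leukocytes. It had the fewest reads of the 8 genes in the wild-type library, 87 (69.7 to 107), and 65 (50.2 to 82.8) in the GarsC201R/+ library. The levels were 3.40 RPKM (2.72 to 4.20) and 5.62 RPKM (4.34 to 7.17). Its ratio was 1.60-fold (1.14 to 2.24), which passed the rule. Of genes with comparably few reads, 145 to 195 over the libraries, 14.7% were called higher and the robust SD of the log2 ratio was 0.57. The log2 ratio of Pecam1, 0.68, is only slightly above that spread. With a minimum of 500 reads Pecam1 was not tested. Of the 8 genes only Cldn5, Flt1 and Slc2a1 had that many reads. Cldn5 was the only one called higher, as were 3.53% of the 4480 genes tested.

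Flt1 (ENSMUSG00000029648) and Kdr (ENSMUSG00000062960) encode the VEGF receptors VEGFR1 and VEGFR2. Kdr carries most of the mitogenic signal of VEGF in endothelium, while Flt1 binds VEGF tightly, signals weakly and also gives a soluble form that acts as a decoy. Flt1 had 402 wild-type reads (364 to 443) and 272 GarsC201R/+ reads (241 to 306), or 7.48 RPKM (6.77 to 8.25) and 11.2 RPKM (9.91 to 12.6). Kdr had 141 reads (119 to 166) and 96 reads (77.8 to 117), or 3.06 RPKM (2.57 to 3.60) and 4.60 RPKM (3.73 to 5.62). Whether such intervals of the levels overlap between the libraries was not counted over all genes. By the interval of the TMM ratio, both receptors were higher in the GarsC201R/+ library, as were 23.7% of the tested genes.

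The ratios of the receptors were almost the same. Flt1 stood at 1.45-fold (1.24 to 1.70) and Kdr at 1.46-fold (1.11 to 1.91), both with intervals above equal levels and both below the 1.5-fold limit. Summed, their reads were 543 and 368, a ratio of 1.45-fold (1.27 to 1.66). The level of Kdr per length was 0.408 of that of Flt1 in the wild-type and 0.411 in the GarsC201R/+ library, so the relative fold of Kdr over Flt1 was 1.01. Its interval, 0.735 to 1.37, does not exclude moderate differences in either direction. Among all tested genes, 9.54% had a higher ratio than Flt1 and 9.34% a higher ratio than Kdr. Robust SDs of the log2 ratio in genes with similar reads were 0.39 for Flt1 and 0.53 for Kdr, against their own log2 ratios of 0.54 and 0.54. The tables hold 1 total per gene, so the soluble and membrane forms of Flt1 were not told apart.

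Slc2a1 (ENSMUSG00000028645) encodes the glucose carrier GLUT1, through which glucose crosses the barrier, and which other cells of the tissue also use. It was the most abundant of the 8 genes, with 1814 wild-type (1731 to 1899) and 1073 GarsC201R/+ reads (1010 to 1139). Levels were 71.4 RPKM (68.2 to 74.8) and 93.5 RPKM (88.0 to 99.3). Its ratio of 1.27-fold (1.18 to 1.37) was the most tightly bounded of the 8 and lay below the 1.5-fold limit. Well covered genes varied by a similar amount: among the 973 genes with 2152 or more reads the robust SD of the log2 ratio was 0.32, and Slc2a1 had 0.34. Of those well covered genes 1.13% were called higher, and 19.3% of all tested genes had a higher ratio than Slc2a1.

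Slco1c1 (ENSMUSG00000030235) encodes an organic anion carrier that takes up thyroxine. It was the only one of the 8 whose interval lay below equal levels, with 338 reads (303 to 376) in the wild-type and 126 reads (105 to 150) in the GarsC201R/+ library. The deposited levels, 13.7 RPKM (12.2 to 15.2) and 11.3 RPKM (9.38 to 13.4), had overlapping intervals. Its log2 ratio was -0.32 (-0.63 to -0.02), below the 1.5-fold limit, and 25.5% of tested genes had a lower one. The interval held equal levels with scaling to total gene reads (-0.58 to 0.03), the upper quartile (-0.59 to 0.02) or the RPKM totals (-0.58 to 0.02), and after the wild-type reads were thinned to equal depth (-0.63 to 0.08). Relative to Slco1c1, Slc2a1 was 1.59-fold higher in the GarsC201R/+ library than in the wild type (1.27 to 1.99). That comparison needs no scaling of the libraries.

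Vwf (ENSMUSG00000001930) encodes von Willebrand factor, which endothelial cells store and release and which megakaryocytes and platelets also hold. Its level per length was the lowest of the 8, with 120 reads (99.5 to 143) or 1.74 RPKM (1.45 to 2.09) in the wild-type library. In the GarsC201R/+ library it had 65 reads (50.2 to 82.8) or 2.09 RPKM (1.61 to 2.66), and the intervals overlapped. The ratio was 1.16-fold (0.845 to 1.58), and its interval holds both equal levels and a 1.5-fold higher level. The length behind its RPKM values, 8834 nt, was the longest of the 8.

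**Figure D2:**
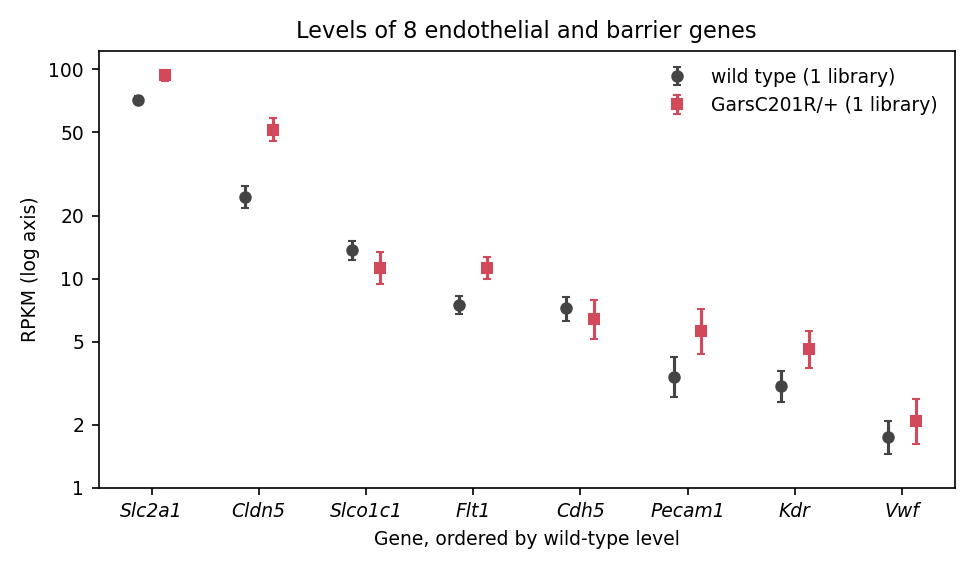
Deposited RPKM of the 8 genes in the wild-type library (circles) and the GarsC201R/+ library (squares) on a log axis, with 95% Poisson intervals of the reads carried to the RPKM scale (n = 1 library per genotype). The share of all genes with RPKM intervals apart between the libraries was not counted, so gaps between the intervals drawn here have no background. By the interval of the TMM ratio, a different measure, 5 of the 8 genes were higher and 1 was lower. Of the tested genes, 23.7% were higher and 28.2% lower by that interval.

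The order of the 8 levels per length was the same in both libraries: Slc2a1, Cldn5, Slco1c1, Flt1, Cdh5, Pecam1, Kdr and Vwf. These levels use the gene lengths behind the RPKM values, not coding lengths. How far the order and the gaps between genes depend on that choice was not tested. From the first to the last the RPKM spanned 41.0-fold in the wild-type and 44.7-fold in the GarsC201R/+ library. Not all neighbours were separated. In the wild-type library 5 of the 7 neighbouring pairs differed beyond counting error, and the exceptions were Flt1 over Cdh5 (1.04-fold, 0.881 to 1.23) and Pecam1 over Kdr (1.11-fold, 0.842 to 1.46). In the GarsC201R/+ library 4 of the 7 did, and Slco1c1 over Flt1 (1.01-fold, 0.807 to 1.25), Cdh5 over Pecam1 (1.14-fold, 0.818 to 1.59) and Pecam1 over Kdr (1.22-fold, 0.878 to 1.69) did not. The gap between Slc2a1 and Cldn5 was 2.91-fold (2.56 to 3.32) in the wild type and 1.81-fold (1.58 to 2.09) in GarsC201R/+. That between Cldn5 and Slco1c1 was 1.80-fold (1.53 to 2.12) and 4.58-fold (3.68 to 5.71).

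Among all genes of the tables, Slc2a1 stood above 92.6% of genes by RPKM in the wild-type library and above 94.7% in the GarsC201R/+ library. Cldn5 stood above 77.7% and 89.3%. Vwf, at the other end, stood above 14.5% and 16.4% of genes. Together the 8 genes took 0.0437% of the wild-type gene reads (3397 reads; Wilson interval 0.0423% to 0.0452%). In GarsC201R/+ they took 0.0585% (2044 reads; 0.0561% to 0.0611%). The summed ratio was 1.29-fold (1.22 to 1.36). Slc2a1 supplied 53.4% of the summed reads in the wild-type and 52.5% in the GarsC201R/+ library, and without it the ratio was 1.32-fold (1.21 to 1.43). Cldn5 supplied 7.98% (7.11% to 8.94%) and 12.6% (11.2% to 14.1%) of the summed reads. Slco1c1 went the other way, with 9.95% in the wild type and 6.16% (5.20% to 7.29%) in GarsC201R/+.

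**Figure D3:**
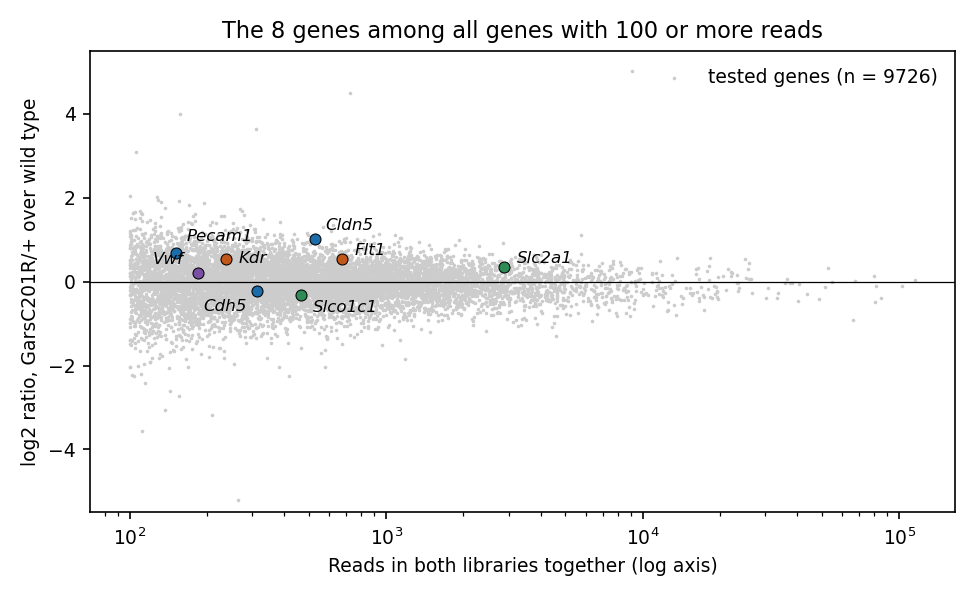
Log2 ratio of the GarsC201R/+ over the wild-type library against the reads in both libraries together (log axis) for the 9726 tested genes (grey) and the 8 endothelial and barrier genes (coloured by role). The spread of all genes narrows as reads increase. Cldn5, with 528 reads, lies near the upper edge for its depth, and the others lie within the cloud.

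The genes can be set against each other without any scaling of the libraries, by dividing the ratio of reads of one gene by that of another. Of the 28 pairs of the 8 genes, 14 had a relative fold whose counting interval excluded 1. The intervals are not adjusted for the number of pairs, and a share of this size is ordinary: with normal intervals of the log odds ratio, 15 of the 28 pairs and 50.2% of all pairs of tested genes excluded 1. The pairs below are therefore a description of these 8 genes, and nothing in their number sets them apart. Cldn5 was in 6 such pairs, all but the one with Pecam1 (1.27, 0.869 to 1.86). Cdh5 and Slco1c1 were in 5 each, and did not differ detectably from each other (log2 0.11, -0.37 to 0.59). The largest relative fold was that of Cldn5 over Slco1c1, 2.54 (1.93 to 3.35). Pecam1, Kdr, Flt1, Slc2a1 and Vwf formed the middle, and no pair among these 5 had an interval that excluded 1. The one for Flt1 over Slc2a1, for example, was 0.960 to 1.36. Vwf, with few reads, differed detectably from Cldn5 only.

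**Figure D4:**
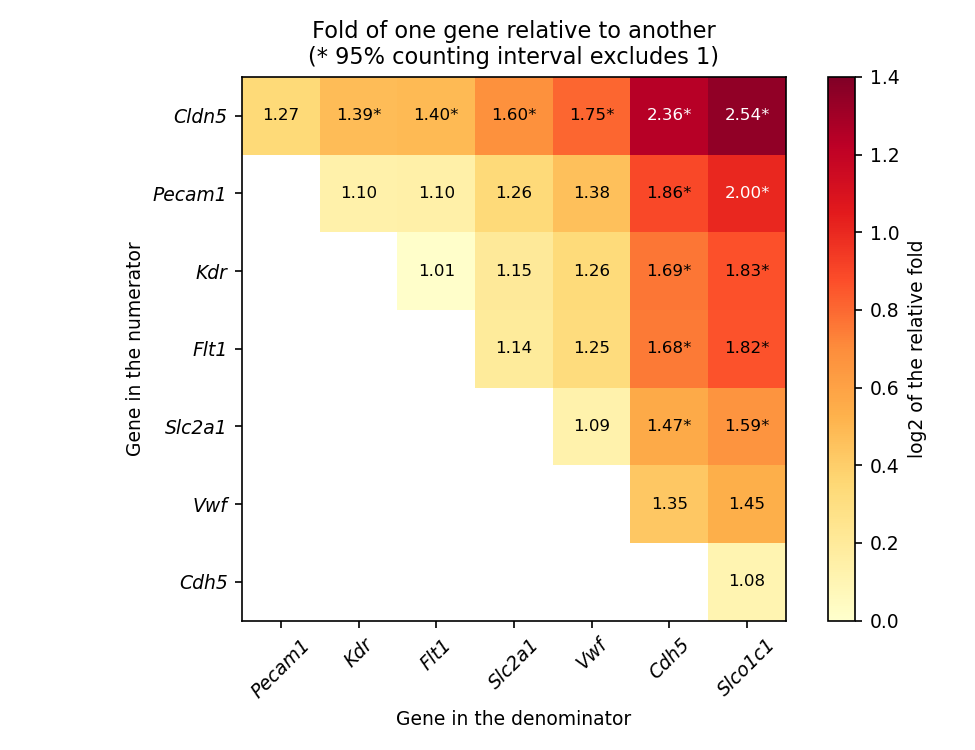
Relative fold of each pair of genes: the ratio of GarsC201R/+ to wild-type reads of the row gene divided by that of the column gene, without scaling or prior count (n = 1 library per genotype). Asterisks mark the 14 of 28 pairs whose 95% counting interval excludes 1, a share close to the 50.2% of all gene pairs found with normal intervals. They lie in the row of Cldn5 and in the columns of Cdh5 and Slco1c1.

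Sequences upstream of an annotated start of transcription were compared for 4 members. The members were chosen as the gene with the highest ratio (Cldn5), the receptor genes with nearly equal ratios (Flt1 and Kdr) and the gene with the lowest ratio (Slco1c1). The sequences are the 250 bases before 1 annotated start in RefSeq (GRCm38.p6), 5′ to 3′ on the strand of the gene. Those of Cldn5 and Slco1c1 end where the RefSeq span of the gene begins. Those of Flt1 and Kdr lie inside the span, which reaches 147726438 for Flt1 and 75979072 for Kdr, so they precede an inner start. The RefSeq promoter table held 5 of the 8 genes by symbol, Slc2a1 being the fifth; Cdh5, Pecam1 and Vwf were not compared. Capitals mark GGAA or its reverse complement TTCC, the core bound by ETS factors, a family with known roles in endothelial gene expression. The intervals are chr16:18776597-18776846 (+) for Cldn5, chr5:147726012-147726261 (-) for Flt1, chr5:75978456-75978705 (-) for Kdr and chr6:141524104-141524353 (+) for Slco1c1.
Cldn5: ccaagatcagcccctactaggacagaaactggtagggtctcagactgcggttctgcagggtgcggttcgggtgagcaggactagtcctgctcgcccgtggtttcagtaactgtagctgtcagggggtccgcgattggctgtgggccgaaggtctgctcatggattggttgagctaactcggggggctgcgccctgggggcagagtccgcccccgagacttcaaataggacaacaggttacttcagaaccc
Flt1: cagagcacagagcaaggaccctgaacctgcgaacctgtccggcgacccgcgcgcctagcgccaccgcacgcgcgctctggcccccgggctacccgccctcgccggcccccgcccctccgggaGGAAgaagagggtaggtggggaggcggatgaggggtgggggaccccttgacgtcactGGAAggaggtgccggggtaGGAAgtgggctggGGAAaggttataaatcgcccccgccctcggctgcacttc
Kdr: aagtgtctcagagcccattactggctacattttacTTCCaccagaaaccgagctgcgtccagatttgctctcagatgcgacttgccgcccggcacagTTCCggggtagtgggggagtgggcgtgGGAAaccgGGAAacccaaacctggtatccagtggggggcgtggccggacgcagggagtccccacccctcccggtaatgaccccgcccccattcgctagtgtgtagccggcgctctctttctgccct
Slco1c1: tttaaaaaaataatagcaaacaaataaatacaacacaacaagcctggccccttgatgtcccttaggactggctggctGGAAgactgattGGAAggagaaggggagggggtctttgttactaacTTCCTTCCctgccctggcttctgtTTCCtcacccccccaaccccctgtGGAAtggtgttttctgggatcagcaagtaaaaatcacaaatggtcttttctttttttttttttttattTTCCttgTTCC

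The core was found 4 times in Flt1, 4 times in Kdr and 8 times in Slco1c1, counted on both strands. No match lay in the windows of Cldn5 and Slc2a1. Of all 32851 promoter windows of that length, 93.4% held at least 1 match, and the median window held 3. A longer form, GGAAGT on either strand, was in Flt1, Kdr and Slco1c1 and in 19.7% of all windows. Each of its matches contains a match of the core. Flt1 also held TGACGTCA, the cyclic AMP response element, at positions -81 to -74 from the start, as 1.55% of windows did, and TATAAA at -31 to -26, as 12.4% did. The Slc2a1 window held ACGTG on 1 strand, the core of hypoxia response elements, as did 16.6% of windows. The CCAAT box (CCAAT on either strand) was in Cldn5 and Slco1c1, and in 33.8% of windows. The GC box GGGCGG was found in Cldn5, Flt1, Kdr and Slc2a1 and in 32.7% of windows. Slco1c1 had none, and its window was 42.8% G and C, against 70.4% in Flt1 and a median of 52.4%. A match describes letters only. Reads of ribosome-protected fragments do not measure promoter use, and no motif was tied to a ratio.

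Counting rules bear on some of these genes more than on others. In the RefSeq table for GRCm38, long non-coding RNA genes overlapped the spans of Cdh5 (Gm29682), Flt1 (Gm35383), Kdr (Gm32727) and Slc2a1 (Gm52706 and Gm12867). Whether counting used the strand is not given, and exons were not compared, so whether the genes of a pair share reads was not tested. The shared stretch of Slc2a1 and Gm52706 was only 5 bases. Cldn5, Pecam1, Slco1c1 and Vwf had no overlapping gene in that table. The remaining spans were chromosome 8, 104101613 to 104144504 for Cdh5, chromosome 11, 106654213 to 106715281 for Pecam1, and chromosome 5, 147561604 to 147726438 for Flt1. Kdr spans chromosome 5, 75932827 to 75979072, and Slc2a1 chromosome 4, 119108745 to 119137330. On chromosome 6, Slco1c1 lies at 141524354 to 141570177 and Vwf at 125552948 to 125686679.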

How the data were processed

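Ribosome-protected fragments of spinal cord were sequenced from 1 wild-type and 1 GarsC201R/+ library, each of 3 pooled animals. Per the submitters' processing notes, tools were Bowtie 1.2.2 and HTSeq 0.9.1, on GRCm38; their settings, annotation release and strand are not given. Per the file headers, each table holds counts of reads and RPKM values per gene, both used as the authors deposited them. Dividing reads by RPKM gave the same whole-number gene lengths in both libraries, for totals of 7790126 and 3520348 reads.

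The 12530 genes were scaled with TMM in edgeR 4.0.16 (R 4.3.3), apart from 18 ERCC spike-ins. Log2 ratios used a prior count of 0.5 scaled to library size, with exact conditional binomial (Clopper-Pearson) intervals. Intervals of reads are exact Poisson, and relative folds between genes have exact conditional intervals of the odds ratio (normal intervals for all pairs of tested genes, added after seeing the data). Genes with similar reads are those of the same of 10 equal groups of tested genes, ordered by reads in both libraries together; the robust SD is the scaled median absolute deviation. The self-test of the calling rule was passed on simulated Poisson counts, which hold counting error only. It cannot show how the rule behaves on the wider spread between these libraries. The alternatives were 4 other scalings (DESeq2 1.42.0 among them), another prior count, leaving genes above 1% of a library out of TMM, read minimums, a 99% interval, a 2-fold limit, thinning and leaving out each member. Scaling to the totals behind the RPKM values was added after seeing the data.

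The named genes are the 8 members. They and all lists were chosen with earlier results of these data known. Their symbols came with the definition of the gene set; 0 identifiers matched the reference table of 49997 genes, so fixed lists of other cell type markers and pathway genes were not analysed here. Protein sequences and glycine content were not analysed here. Genes were not ranked by likeness of pattern, since 2 libraries give 1 difference per gene. Other steps used Python 3.11.15 (scipy 1.17.1, numpy 2.4.6, matplotlib 3.10.9, pandas 2.3.3).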

Additional observations from a re-analysis of the deposited data

Results flagged for a closer look

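The ERCC spike-ins, synthetic control RNAs outside the mouse genes compared here, made up 0.650% of the listed reads in the GarsC201R/+ library and 0.00669% in the wild-type library.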

How the results depend on the processing

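Total-count, DESeq2 and upper-quartile scaling, TMM without genes above 1% of a library, a prior count of 2, thinning and scaling to the totals behind the RPKM values, which was chosen after seeing the data, kept the direction of all 8 ratios, with Cldn5 between 1.02 and 1.08, Pecam1 between 0.64 and 0.73 and Slco1c1 between -0.32 and -0.27 on the log2 scale. Leaving out each gene in turn kept the summed ratio between 1.23-fold (without Cldn5) and 1.34-fold (without Slco1c1). Scaling to the spike-ins shifts every gene by 1 common amount: it turned Cldn5 to -5.53 and Pecam1 to -5.86, moved Kdr to -6.00, Flt1 to -6.02, Slc2a1 to -6.21, Vwf to -6.32, Cdh5 to -6.76, Slco1c1 to -6.87 and the summed ratio to -6.19, and gave 0 genes higher and 9726 lower, with 0 members higher and 8 lower. All directions are thus relative to the gene reads. The interval of Slco1c1 held equal levels under total-count, upper-quartile and RPKM-total scaling and after thinning. Members called higher numbered 4 with total-count scaling (Cldn5, Pecam1, Flt1, Kdr), 3 with the RPKM totals or thinning (Cldn5, Pecam1, Kdr), and 1 (Cldn5) with a minimum of 500 reads or a 2-fold limit, against 2. Genes called higher numbered 792 and lower 1087 (8.14% and 11.2%). Total-count scaling gave 952 higher and 919 lower (9.79% and 9.45%), and the RPKM totals 918 and 945 (9.44% and 9.72%). With thinning they numbered 653 and 848 (7.72% and 10.0%). No read minimum gave 1379 higher and 1353 lower, a minimum of 500 reads 158 and 348 among fewer genes tested, and a 2-fold limit 166 and 267 by its construction. The alternatives for marker lists and coding lengths were not run, because no identifier outside the 8 members was paired with a symbol, and no protein table was used. No replicate could be left out. No paired analysis was possible because each genotype has 1 library.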
